A study of Mus musculus with 6 samples.

Results

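The genes examined here encode the constitutive proteasome, its regulatory particles and its assembly factors. Non-control spots were taken whose gene symbol begins with Psma, Psmb, Psmc, Psmd, Psme, Psmf or Psmg and a digit, the immunoproteasome subunits *Psmb8*, *Psmb9* and *Psmb10* being left out. This gave 67 of the 59305 non-control spots of each array, or 58 of 55681 probes, for 46 of 22254 gene symbols. 1 of these genes, *Psmc3ip*, shares the first letters of the symbol but encodes a meiotic recombination factor and not a subunit, and it was kept under its own name.

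The cells were 1G11, a line of mouse microvascular endothelial cells labeled as of the C57BL/6NCrLBR strain, either mock (1G11-mock) or overexpressing extracellular superoxide dismutase (1G11-SOD3). Both lines had been exposed for 6 h to conditioned medium of N202.1A, a mouse mammary cancer line, so that no array shows either line without this medium. RNA of 3 independent experiments per line was hybridized to 6 single-color Agilent arrays of 1 slide, and whether 1G11-SOD3 is 1 clone is not given in the sources used here. The arrays of each line shared a slide row of their own, so that cell line and slide row cannot be told apart.

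Proteasomes degrade proteins that carry ubiquitin chains. The core particle (20S) is a stack of alpha rings, which gate the entry, and beta rings, which hold the proteolytic sites. The regulatory particle (19S) binds ubiquitin, removes it and threads the substrate into the core with a ring of ATPases. Activators such as Psme1 and Psme2 can cap the core in place of the regulatory particle, and dedicated chaperones build both particles. In endothelial cells, as elsewhere, the proteasome destroys the inhibitor of NF-κB after it has been tagged by a ligase that contains Btrc, and it processes NF-κB precursors.

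The comparison asks whether mRNA of this machinery differed between the cell lines. Values are log2 intensities after background correction and quantile normalization across the arrays, and a difference is always 1G11-SOD3 minus 1G11-mock, with its limma standard error or 95% interval. A call required both a change over 2-fold and an adjusted p under 0.05 (limma, Benjamini-Hochberg over 55961 values). Levels of different probes are not compared, since probes bind with different strength. The mRNA came from whole cultures, where fewer cells expressing a gene and less RNA per cell cannot be told apart.

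Place on the array moved with the cell line. In the middle (rows 129 to 256 of 384 and columns 55 to 109 of 164), the median log2 fold change of probes well above background was 1.02, against -0.17 elsewhere, and 12% of all probes there were called higher and 0.0622% lower. Only 3 member spots lie in it, which carry the *Psmg1* probe and 2 of 10 copies of the *Psme1* probe, and they are reported apart. The gradient did not stop at that border. A smooth surface of intensity over rows and columns, fitted without member spots, ran from -0.20 to 1.02 (log2, 1G11-SOD3 minus 1G11-mock) at the member spots outside the middle, with a median of 0.33. Subtracting the surface brought the SD among repeated copies of a probe down from 0.70 to 0.18, and position-adjusted values are given for the proteasome genes named below. Since normalization followed the subtraction, the median of all probes well above background outside the middle moved with it, from -0.17 to 0.09. The targeted gene, *Sod3*, has its only probe in the middle. It read 13.61, 12.66 and 9.86 in 1G11-mock and 16.37, 16.30 and 16.26 in 1G11-SOD3 cells, without overlap. The log2 fold change was 4.27 (adjusted p = 0.0074), and 1.98 (adjusted p = 0.0178) after position adjustment.

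The share of spots well above background was 34.2% to 36.0% on the 1G11-mock arrays and 38.4% to 43.8% on the 1G11-SOD3 arrays. Of 15 endothelial marker genes, 5 were well above background on all arrays and 6 on none (*Cdh5*, *Emcn*, *Erg*, *Sox17*, *Tek* and *Tie1*). 2 were called higher, *Cd34* and *Egfl7*, and 1 lower, *Vwf*. Position adjustment (limma) gave 1.13 for *Cd34* at its brighter probe (adjusted p = 0.0303). It gave 0.85 for *Egfl7* (adjusted p = 0.141) and -1.13 for *Vwf* (adjusted p = 0.157). Of 8 fibroblast or mural cell markers, 6 were called higher, and their summed intensity ran from 22502 to 36734 on the 1G11-mock arrays, below its range of 46022 to 175929.6 on the 1G11-SOD3 arrays. The upper end rests on *Dcn*, which was not called and read 17.05 on 1G11-SOD3 replicate 3 against 13.51 and 13.59 on the other 1G11-SOD3 arrays. Without *Dcn* the sums were at most 8673 on the 1G11-mock arrays and at least 33731 on the 1G11-SOD3 arrays. Other lists moved as well. Sums of the endothelial markers ran from 63206 to 84792 in 1G11-mock and from 110414 to 123163 in 1G11-SOD3 cells. They rest mostly on *Cd34*, whose brighter probe read 15.31, 15.82 and 15.28 against 16.66, 16.56 and 16.52. Of the 14 endothelial markers outside the middle, 2 were higher and 3 lower without overlap, with a median log2 fold change of -0.01. *Eng* (-1.05) and *Kdr* (-0.51) were lower and not called, at -0.67 and -0.39 after position adjustment. Sums of 6 epithelial markers, *Krt14* lying in the middle, ran from 1256 to 1314 and from 6891 to 13128. Those of 5 leukocyte markers overlapped, at 17693 to 24762 and 19437 to 24469. Outside the middle, 0.66% of all 49526 probes were called higher and 1.2% lower. The part of these differences in the results below was not tested.

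None of the 57 proteasome probes outside the middle was called (background 0.66% higher and 1.2% lower), and none passed an adjusted p of 0.05 at any fold, where 0.705% of all probes outside the middle passed higher and 1.29% lower. At an unadjusted p under 0.05 there were 9 of 57 (limma), *Psmc3ip* included, where 12.7% of all probes outside the middle reached it. The lowest adjusted p was 0.0559, for *Psmd6*. All but 2 of the 57 probes were well above background on all 6 arrays. The exceptions were *Psma8*, an alpha subunit of the testis, and *Psmb11*, a beta subunit of the thymus, which were well above background on no array and for which no fold change is given. They are left out of the values below except where all 57 probes are counted or the text says so.

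The 55 detected probes leaned toward higher values in 1G11-SOD3 cells by a small amount. The log2 fold change was above 0 at 41 of 55 (74.5%), against 35.6% of the 15248 probes well above background on all arrays outside the middle. Their median was 0.13 (quartiles -0.01 and 0.36, range -0.86 to 1.19), against -0.17 for those 15248 probes. The cell lines did not overlap at 12 of 55 probes in the direction of 1G11-SOD3 (21.8%, background 8.04%) and at 4 in that of 1G11-mock (7.27%, background 20.8%). *Psmc3ip*, which is no subunit, is counted among the 41 and the 12. Members are not replicates of the cell line, and these counts carry no test. At 42 of 55 probes the 95% interval lay within 2-fold in both directions, as it did for 57.4% of the 15248. At the remaining 13 the interval reached past 2-fold. The plot of fold changes by role shows each interval.

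**Figure D1:**
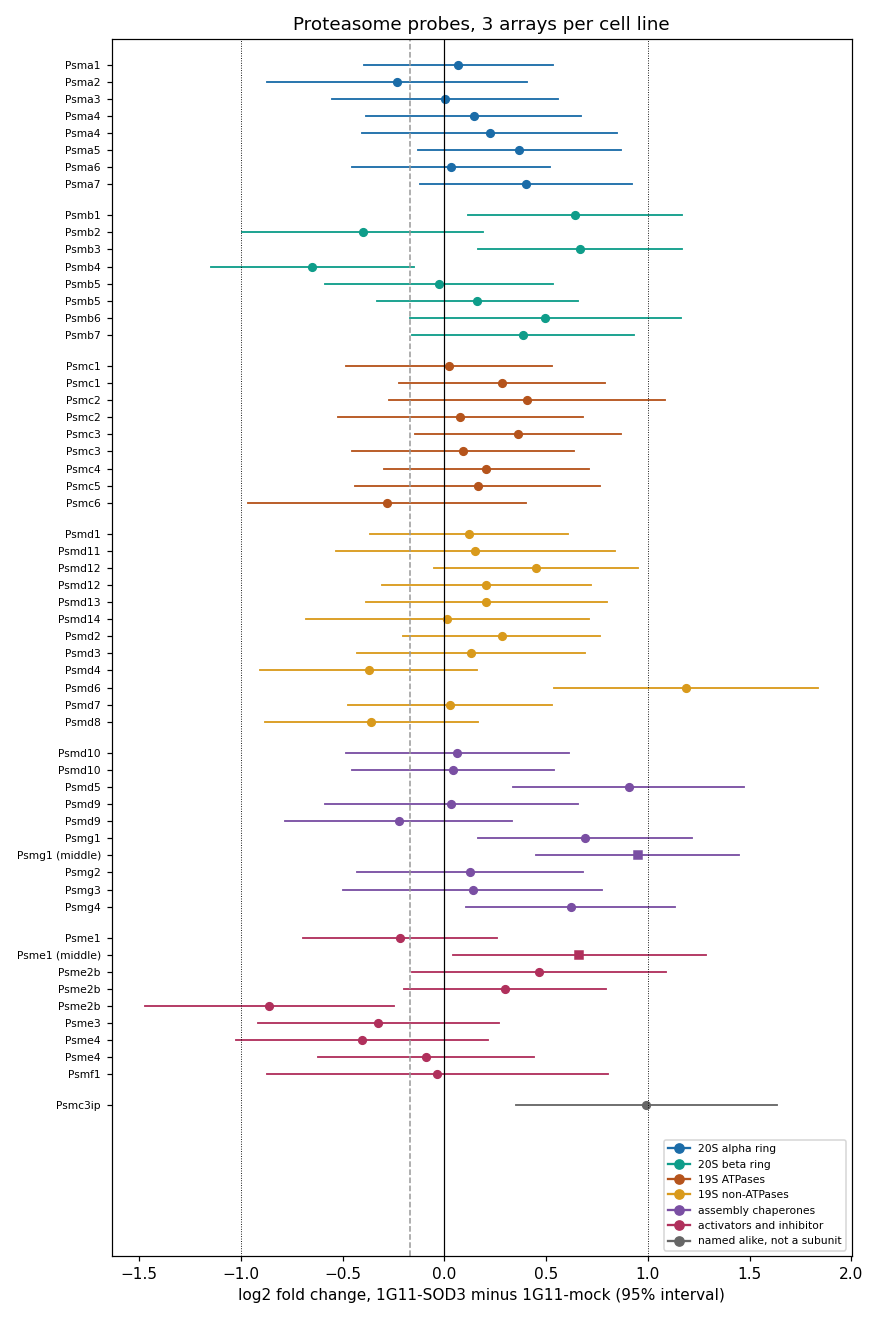
Log2 fold change (1G11-SOD3 minus 1G11-mock, n = 3 arrays each) of every detected proteasome probe with its 95% interval from limma, grouped by role. Squares are spots in the middle of the array, dotted lines 2-fold, and the dashed line the median of all probes well above background outside the middle (-0.17). Most points lie slightly right of 0, with *Psmd6* at 1.19 and the third *Psme2b* probe at -0.86 as the extremes.

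Seen array by array, the lean was not a separation of the lines. The median deviation of the 55 probes from their own means was -0.19, -0.14 and 0.10 for replicates 1, 2 and 3 of 1G11-mock. For those of 1G11-SOD3 it was 0.14, 0.03 and 0.06. Replicate 3 of 1G11-mock thus lay among the 1G11-SOD3 arrays and above 2 of them, and the lines overlapped. Without this array the median log2 fold change of all 57 probes was 0.22, and without replicate 1 or replicate 2 of 1G11-mock it was 0.06 and 0.05. In all 6 roles replicates 1 and 2 of 1G11-mock lay below 0 and replicate 3 above it, as the plot of medians by array shows.

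**Figure D2:**
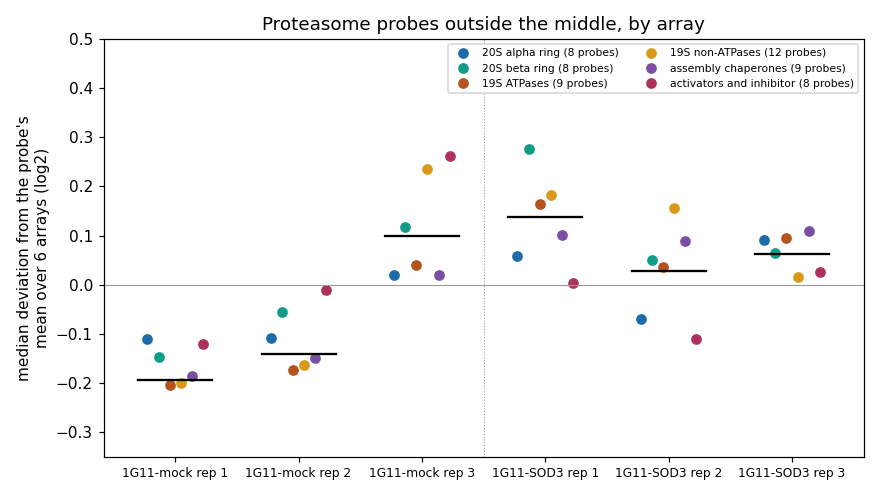
Median deviation of the detected probes of each role from the probe's mean over 6 arrays (log2), by array, outside the middle. Black bars are the medians of all 55 detected probes, which run from -0.19 to 0.14, with 1G11-mock replicate 3 at 0.10.

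In the alpha ring of the core particle, the gate of the proteasome, the median log2 fold change of the 8 detected probes was 0.11, and none was called. The highest was *Psma7*, with 14.91, 14.98 and 15.16 in 1G11-mock and 15.09, 15.70 and 15.46 in 1G11-SOD3 cells. Its difference was 0.40 ± 0.24 (SE), and 0.30 after position adjustment. The lines overlapped, but 1G11-SOD3 was higher in each of the 3 pairs of arrays with the same replicate number (adjusted p = 0.43 with the replicate number as a block). The lowest was *Psma2*, which read 16.37, 15.94 and 15.41 in 1G11-mock and 16.06, 15.50 and 15.45 in 1G11-SOD3 cells, with a difference of -0.23 ± 0.29 (SE). Its sign turned under 2 of 21 other ways of processing, with 0.44 as the highest value and 0.20 after position adjustment. All 8 intervals lay within 2-fold in both directions.

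The beta ring held the widest spread of the core particle, from -0.65 to 0.67 with a median of 0.27 over 8 detected probes. Its 3 proteolytic subunits did not pass the test. *Psmb5*, which carries the chymotrypsin-like site, read 16.70, 16.79 and 16.75 in 1G11-mock and 17.09, 16.99 and 16.64 in 1G11-SOD3 cells at its brighter probe. The difference was 0.16 ± 0.22 (SE), and -0.03 ± 0.26 (SE) at its other probe, so that the probes differed in sign but not beyond their errors. After position adjustment they gave 0.45 and 0.59. *Psmb6*, the caspase-like subunit, read 16.29, 15.59 and 16.74 against 17.02, 16.52 and 16.58, a difference of 0.50 with an interval of -0.17 to 1.16, and 0.58 after position adjustment. *Psmb7*, the trypsin-like subunit, was the only one of the 3 without overlap, with 13.93, 14.63 and 14.54 in 1G11-mock and 14.69, 14.88 and 14.68 in 1G11-SOD3 cells. Its difference was 0.39 (adjusted p = 0.536), the highest 1G11-mock array lying just below the lowest 1G11-SOD3 array, and 0.20 after position adjustment.

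Noncatalytic beta subunits stood at both ends. *Psmb3* read 16.46, 16.16 and 16.003 in 1G11-mock and 16.99, 16.73 and 16.91 in 1G11-SOD3 cells. All 1G11-SOD3 arrays were higher, by 0.67 ± 0.23 (SE, adjusted p = 0.179), or 0.60 after position adjustment. *Psmb4* lay the other way, with 16.63, 16.52 and 16.48 in 1G11-mock and 16.18, 15.69 and 15.82 in 1G11-SOD3 cells. All 1G11-SOD3 arrays were lower, by a log2 fold change of -0.65 ± 0.23 (SE, adjusted p = 0.195). The surface at the *Psmb4* spot was -0.16, and the position-adjusted value was -0.04, a larger move than the surface alone gives. The scanner's processed signal scaled to its 75th percentile gave 0.02. *Psmb1*, chosen after its values were seen, read 14.05, 14.03 and 13.81 against 14.95, 14.33 and 14.55, again without overlap, at a spot 9 columns from the middle. Its difference of 0.64 (adjusted p = 0.228) was 0.39 after position adjustment.

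The ATPase ring of the regulatory particle, which unfolds substrates, had 8 of 9 probes above 0 and a median of 0.16. None was called. The highest difference at a gene's brightest probe was that of *Psmc3*, with 16.73, 16.73 and 16.80 in 1G11-mock and 17.42, 16.85 and 17.08 in 1G11-SOD3 cells. The lines did not overlap there, and the difference was 0.36 ± 0.23 (SE, adjusted p = 0.531). A dimmer *Psmc3* probe gave 0.09. After position adjustment the probes gave 0.23 and 0.38. *Psmc6* was the only ATPase below 0, at -0.28 ± 0.31 (SE), with 12.78, 12.55 and 13.21 against 12.17, 12.29 and 13.24, 1G11-SOD3 replicate 3 being the highest of all 6. After position adjustment it was 0.03.

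*Psmc2* has 2 probes at different spots that share a run of 50 of 60 bases. Effects of the spot and of the unshared bases cannot be told apart. Bases 16 to 45 of each 60-base probe were as follows.
Psmc2 A_55_P2051874: gtaacttgttgccaccgcacaaaaataaaa
Psmc2 A_55_P2103422: ctgtgcttttgtaacttgttgccaccgcac
The first probe, 9 columns from the middle, read 15.38, 14.48 and 14.39 in 1G11-mock and 15.47, 14.73 and 15.27 in 1G11-SOD3 cells, a difference of 0.40. The second probe read 14.72, 15.02 and 15.72 against 15.20, 15.33 and 15.16, a difference of 0.08. The order of the 1G11-mock arrays was opposite in the pair. The surface was 0.79 at the first spot and 0.15 at the second, and after position adjustment the differences were 0.09 and 0.38, in the reverse order. Over the 9 genes with 2 probes outside the middle, the pairs differed by 0.02 to 0.33 (median 0.26), and 7 of 9 pairs had the same sign.

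The non-ATPase subunits of the regulatory particle, which recognize and remove ubiquitin and hold the particle together, had a median of 0.14 over 12 probes. *Psmd6*, a scaffold subunit of the lid, had the largest difference of all proteasome probes outside the middle. Its probe lies on chromosome 14 from 14946703 to 14946762 on the minus strand in the array annotation, whose build the files do not give. Bases 16 to 45 of the probe are shown because the largest difference rests on this single probe.
Psmd6: tgtaagagaaatgagaatccatgcgtacag
*Psmd6* read 13.32, 13.02 and 12.37 in 1G11-mock and 13.70, 14.15 and 14.43 in 1G11-SOD3 cells. All 1G11-SOD3 arrays were higher, by 1.19 ± 0.30 (SE), or 2.28-fold, and the adjusted p of 0.0559 missed the threshold. It was called under 6 of 21 other ways of processing, over all of which the adjusted p ran from 0.0107 to 0.187. Of the arrays, only leaving out 1G11-mock replicate 1 led to a call (1.40, adjusted p = 0.0387), and leaving out 1G11-mock replicate 3 gave 0.92. The surface at its spot, 56 rows from the middle, was 0.88, and the position-adjusted difference was 0.77 (adjusted p = 0.163).

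*Psmd4*, a receptor for ubiquitin chains, had the lowest value of this role. It read 15.99, 15.69 and 15.94 in 1G11-mock and 15.74, 15.64 and 15.13 in 1G11-SOD3 cells, a difference of -0.37 ± 0.24 (SE) with overlap, and -0.06 after position adjustment. It was lower in 1G11-SOD3 in each same-numbered pair (adjusted p = 0.491 with the block). Of the other non-ATPase probes, 9 lay above 0 and 1 below.

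The assembly chaperones held 3 of the 9 probes with an unadjusted p under 0.05 (limma). The beta ring held 3 as well, and 12.7% of all probes outside the middle reached it. *Psmd5* holds ATPases together while the base of the regulatory particle forms and leaves the finished proteasome. Bases 16 to 45 of its probe, on chromosome 2 from 34708108 to 34708167, minus strand, in the array annotation, were the following.
Psmd5: gaaggtccatactatgtgaaacctgttgcc
It read 11.61, 11.44 and 11.37 in 1G11-mock and 12.72, 11.90 and 12.52 in 1G11-SOD3 cells. All 1G11-SOD3 arrays were higher, by 0.91 ± 0.26 (SE), or 1.87-fold (adjusted p = 0.0986), and it was called under none of the 21 other ways of processing. The surface at its spot, 33 rows from the middle, was 1.02, the highest of any member spot outside it, and after position adjustment the difference was 0.38 (adjusted p = 0.362).

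*Psmg1* pairs with Psmg2 to start the alpha ring, and it was measured by a probe outside and one inside the middle. These lie near each other on chromosome 16 in the array annotation, from 96201564 to 96201623 for the outside probe and from 96201644 to 96201703 for that in the middle, both on the minus strand. Since 20 bases part them and they share no run longer than 6, they read the transcript separately.
Psmg1 outside: agtcactgatgttttgtattttattctggc
Psmg1 in the middle: aagttgatgaccacaaatgagattcagagc
The outside probe read 13.23, 12.83 and 13.33 in 1G11-mock and 14.03, 13.59 and 13.85 in 1G11-SOD3 cells. The difference was 0.69 ± 0.24 (SE, adjusted p = 0.187), without overlap. The probe in the middle read 10.74, 10.42 and 10.79 against 11.59, 11.77 and 11.44, also without overlap, which was so for 27.7% of all probes in the middle in that direction.

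At 0.95 ± 0.23 (SE), or 1.93-fold, the *Psmg1* probe in the middle was the only proteasome probe with an adjusted p under 0.05 (0.0473), and it stayed short of 2-fold. Under 20 other ways of processing it passed in 7 and was called in 2, with adjusted p from 0.0241 to 0.228. In the middle 12.2% of all probes were higher at an adjusted p under 0.05. With any of the 6 arrays left out its adjusted p lay between 0.0702 and 0.211. The surface was 0.80 at this spot and 0.59 at the outside one, and the position-adjusted differences were 0.67 (adjusted p = 0.128) and 0.54 (adjusted p = 0.195). Both probes kept the direction under all the other processing run, from 0.48 to 0.86 outside and from 0.58 to 1.09 in the middle.

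*Psmg4*, which acts in alpha ring assembly and was chosen after its values were seen, read 10.62, 10.98 and 10.86 in 1G11-mock and 11.63, 11.15 and 11.54 in 1G11-SOD3 cells. The difference was 0.62 (adjusted p = 0.237) without overlap, and 0.58 after position adjustment. *Psmd9*, a chaperone of the base, was the lowest of its role, with -0.23 at its brighter probe and 0.03 at the other, both with overlap and neither beyond its standard error of 0.25 and 0.28. After position adjustment these were 0.27 and 0.19.

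**Figure D3:**
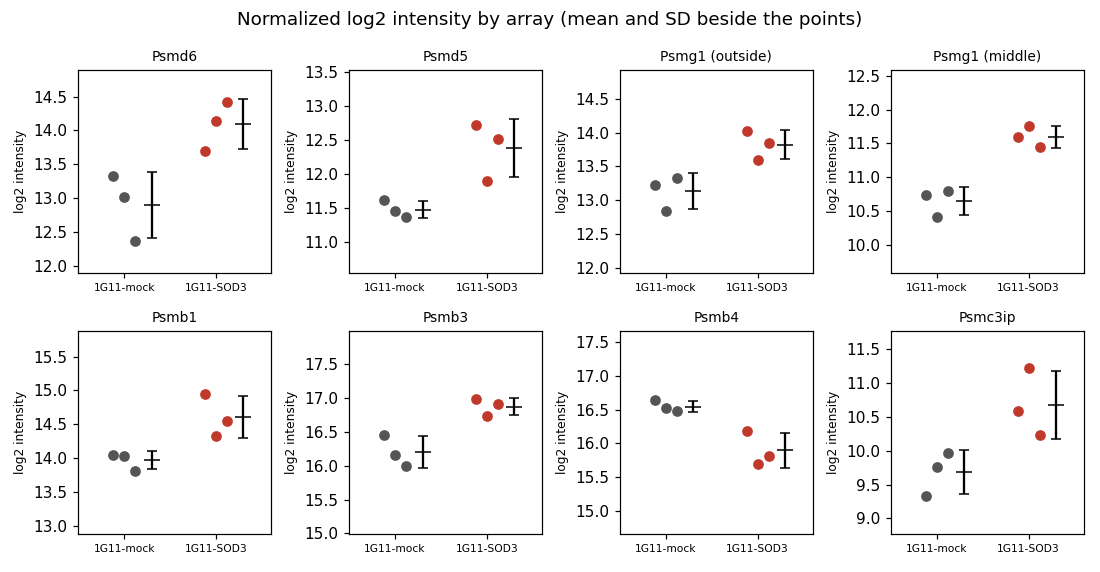
Normalized log2 intensity of 8 probes on each array, with the mean and SD (n = 3) beside the points, all panels spanning 3 log2 units. The lines do not overlap in any of these panels, which were chosen for their large differences, with *Psmb4* lower and the others higher in 1G11-SOD3 cells. *Psmc3ip* is no proteasome subunit.

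The activators and the inhibitor were the only role with a median below 0, at -0.15 over 8 probes. That of all probes well above background outside the middle was -0.17. With the position surface subtracted the role's median was 0.20 and that of all these probes 0.09, so that the sign depended on the processing. *Psme1*, an interferon-inducible subunit of the PA28 activator, is printed 10 times, which shows the place effect on 1 sequence. Bases 16 to 45 of this probe, on chromosome 14 from 56200194 to 56200253, plus strand, in the array annotation, were the following.
Psme1: gatctattgagccccctctctcattctgtg
The 8 copies outside the middle read 14.94 to 15.62 on 1G11-mock and 14.75 to 15.60 on 1G11-SOD3 arrays. Their average was 15.29, 15.41 and 15.51 in 1G11-mock and 15.26, 15.26 and 15.03 in 1G11-SOD3 cells, a difference of -0.22 ± 0.22 (SE, adjusted p = 0.712) with no overlap.

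Both copies of *Psme1* in the middle gave the opposite sign. One read 14.84, 14.91 and 13.68 in 1G11-mock and 15.59, 15.49 and 15.14 in 1G11-SOD3 cells. The other read only 10.56 on replicate 3 of 1G11-mock, having read 14.07 and 12.30 on replicates 1 and 2, against 15.68, 14.85 and 15.33 in 1G11-SOD3 cells. The scanner software had marked 3 of these values as outliers. With these left out, so that replicate 3 of 1G11-mock gave no value, the difference was 0.66 (adjusted p = 0.308), and with them kept it was 1.95 (adjusted p = 0.0473) and called. After position adjustment, the outside and middle copies gave 0.11 and -0.21.

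**Figure D4:**
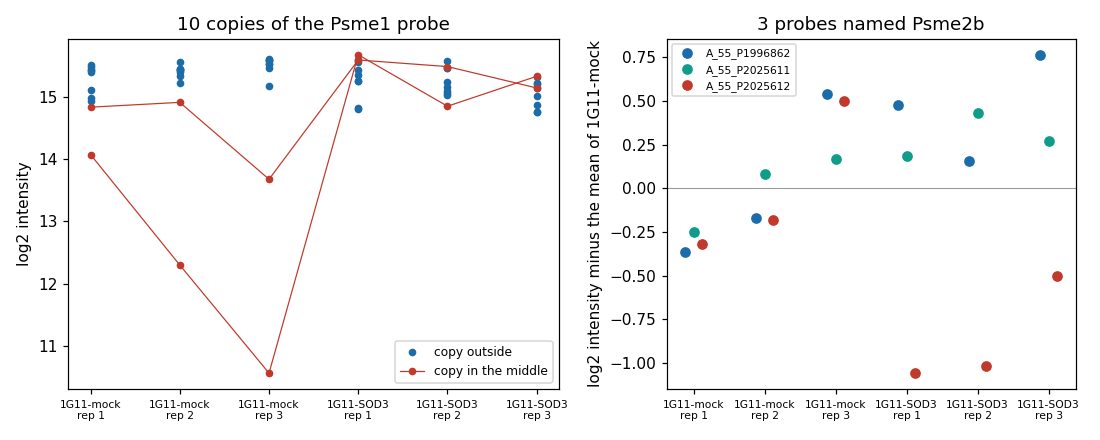
Left, log2 intensity of the 10 copies of the *Psme1* probe on each array, outlier-marked values included, with the 2 copies in the middle joined by lines. The middle copies read 13.68 and 10.56 on 1G11-mock replicate 3, where the outside copies average 15.51. Right, log2 intensity of 3 *Psme2b* probes less the 1G11-mock mean of each, where A_55_P2025612 alone is lower on all 1G11-SOD3 arrays.

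*Psme2*, the partner of *Psme1*, was represented by probes named *Psme2b*, after a second copy of the gene. The accessions listed for the first and second probes belong to *Psme2* and *Psme2b*, which they cannot tell apart, whereas those of the third belong to *Psme2b* alone. All were annotated on the minus strand of chromosome 11, where the third covers 48759630 to 48759689. Bases 16 to 45 of the 3 probes are given since they are the members that disagree.
Psme2b A_55_P1996862: aaagccatcgatgtactgagctaaggatta
Psme2b A_55_P2025611: gctgatgacttcctctgcactttcttgcca
Psme2b A_55_P2025612: actcacttaaagaaatacaggacgaggctc
The first probe read 14.45, 14.65 and 15.36 in 1G11-mock and 15.29, 14.97 and 15.58 in 1G11-SOD3 cells, with overlap but higher in each same-numbered pair. The second read 13.96, 14.29 and 14.38 against 14.39, 14.64 and 14.48, just without overlap. The third read 9.43, 9.56 and 10.24 against 8.69, 8.73 and 9.24, with every 1G11-SOD3 array lower.

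The first 2 *Psme2b* probes thus gave log2 fold changes of 0.47 and 0.30 (adjusted p = 0.51 and 0.612) and the third -0.86 ± 0.28 (SE, adjusted p = 0.152). The third was the lowest of all members, and its value lay between -1.03 and -0.62 under the 21 other ways of processing without a call. The position-adjusted values of the 3 probes were 0.78, 0.16 and -0.71, and with the replicate block the adjusted p values were 0.362, 0.564 and 0.058. The difference between the third and the first probe, 1.32 on the log2 scale, exceeded that of any pair of probes of the 9 genes with 2 outside probes (0.33). It was not tested.

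The remaining activators lay below 0 and did not pass the test. *Psme3*, the nuclear PA28 activator, read 10.28, 10.80 and 10.95 in 1G11-mock and 10.68, 10.41 and 9.97 in 1G11-SOD3 cells, a difference of -0.32 with overlap, which became 0.27 after position adjustment. *Psme4*, which encodes the large activator PA200, read 10.81, 10.45 and 10.56 against 10.33, 9.63 and 10.65 at its brighter probe, a difference of -0.40 with overlap. Its other probe gave -0.09, and after position adjustment they gave -0.16 and 0.35.

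*Psmc3ip* had the second largest difference of the probes chosen by symbol. It read 9.33, 9.76 and 9.97 in 1G11-mock and 10.59, 11.22 and 10.23 in 1G11-SOD3 cells, a difference of 0.99 ± 0.29 (SE), or 1.99-fold, without overlap (adjusted p = 0.11). It was called under 2 of 21 other ways of processing, one being the position surface (1.16, adjusted p = 0.0488).

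The immunoproteasome subunits, which replace the proteolytic beta subunits after interferon, gave no call. *Psmb8* read 10.20, 10.35 and 9.999 in 1G11-mock and 10.13, 10.03 and 8.52 in 1G11-SOD3 cells, a difference of -0.62 (-0.37 after position adjustment) that rests mostly on 1G11-SOD3 replicate 3. *Psmb9* read 10.41, 10.26 and 11.05 against 10.24, 9.31 and 9.04, a difference of -1.05 ± 0.33 (SE, adjusted p = 0.144) and -0.83 after position adjustment, with every 1G11-SOD3 array lower. *Psmb10* lies in the middle and read 13.24, 13.20 and 11.96 against 14.47, 14.34 and 13.58. Its difference of 1.34 (adjusted p = 0.0826) was -0.10 after position adjustment.

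Other genes of the pathway were summarized by list at the brightest probe of each gene. None of 9 genes of the ligase that tags the NF-κB inhibitor was called, with a median of -0.11. *Btrc* itself was -0.02 (limma, adjusted p = 0.979), and 0.53 (adjusted p = 0.291) after position adjustment. Its dimmer probe, well above background on 1 of the 1G11-mock and 3 of the 1G11-SOD3 arrays, gave 0.43, and 0.86 after position adjustment. A second, middle probe of *Rbx1*, the ring finger subunit of that ligase, was called at 3.03 (limma, adjusted p = 0.0478). After position adjustment this probe gave 0.84 (adjusted p = 0.244). The brightest *Rbx1* probe, outside the middle, gave 0.21, and 0.12 after position adjustment. None of 6 ubiquitin and E1 genes was called (median -0.10). Of 15 proteasome partners with other symbols, 1 was called, *Usp14*, a ubiquitin protease bound to the regulatory particle. Both of its probes lie in the middle, and the called one gave 4.56 (adjusted p = 0.00283), or 1.05 (adjusted p = 0.0699) after position adjustment. The other gave 0.92, and -1.70 after position adjustment. It was well above background on no 1G11-mock and 2 of the 1G11-SOD3 arrays. *Pomp*, the chaperone of the beta ring, was -0.25 (adjusted p = 0.728).

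Nfe2l1, together with its relative Nfe2l2, binds antioxidant response elements and drives proteasome genes when proteasome activity or the redox balance is disturbed. Of 8 genes around this factor none was called, and their median was -0.62. Of the 7 outside the middle, 4 were lower and 1 higher without overlap. The higher one was *Ngly1*, at 0.55, well above background on no 1G11-mock array, and 0.63 after position adjustment. *Vcp*, in the middle, gave 1.44, and 0.14 after position adjustment. *Ddi2* turned from -0.34 to 0.23 with that adjustment. *Nfe2l1* read 10.47, 10.95 and 10.85 in 1G11-mock and 10.46, 10.41 and 9.62 in 1G11-SOD3 cells, a difference of -0.59 (adjusted p = 0.363), and -0.17 after position adjustment. *Nfe2l2*, chosen after its values were seen, read 14.96, 14.73 and 14.56 against 13.11, 13.68 and 14.13. Every 1G11-SOD3 array was lower, with a difference of -1.11 ± 0.28 (SE, adjusted p = 0.0598), and -0.99 after position adjustment.

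Promoters were examined for the element that Nfe2l1 binds. RefSeq promoters, from 250 bases upstream of the transcription start, were at hand for 38 of the 46 genes and for *Psme2*, 42 promoters in all. The letters TGACNNNGC were found on either strand in 5 of 42 (11.9%), against 10.2% of all 32851 promoters of the same length. CCAAT was found in 33.3% (33.8% of all) and a kappa-B motif, GGG and CC with any 5 bases between them, in 54.8% (45.8% of all). The median log2 fold change was 0.16 for the 5 genes with the element and 0.14 for those without, *Psmb11* and *Psmc3ip* included. Windows of 60 bases around the match are shown for the 5 genes because the proteolytic subunits *Psmb5* and *Psmb6* are among them, with the element in capitals in the orientation of the gene (GRCm38.p6).
Psmb5, chr14:54618009-54618068, minus strand: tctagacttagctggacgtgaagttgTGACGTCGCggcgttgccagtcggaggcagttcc
Psmb6, chr11:70525297-70525356, plus strand: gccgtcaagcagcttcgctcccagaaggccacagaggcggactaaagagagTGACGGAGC
Psmc6, chr14:45329574-45329633, plus strand: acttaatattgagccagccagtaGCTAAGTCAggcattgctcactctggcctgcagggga
Psmd12, chr11:107479278-107479337, plus strand: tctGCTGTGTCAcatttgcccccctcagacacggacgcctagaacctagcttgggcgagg
Psmd9, chr5:123228130-123228189, plus strand: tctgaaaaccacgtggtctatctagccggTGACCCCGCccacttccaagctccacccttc
The match began 47 bases before the start site in *Psmb5*, 9 in *Psmb6* and 31 in *Psmd9*. In *Psmc6* and *Psmd12* the letters lie on the opposite strand, 227 and 247 bases before it. A match is a description of the letters and not of binding.

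The lean of the members relative to all probes well above background outside the middle had the same sign under every processing run. Here the members were all 57 probes, *Psma8* and *Psmb11* included, or 55 with dim probes left out. Their median was higher by 0.19 to 0.39 on the log2 scale over the 21 alternatives (0.30 as reported). The smallest gap was that with the position surface subtracted. The medians themselves ran from 0.05 to 0.31 for the members and from -0.21 to 0.09 for all probes well above background, as the plot of medians by processing shows.

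**Figure D5:**
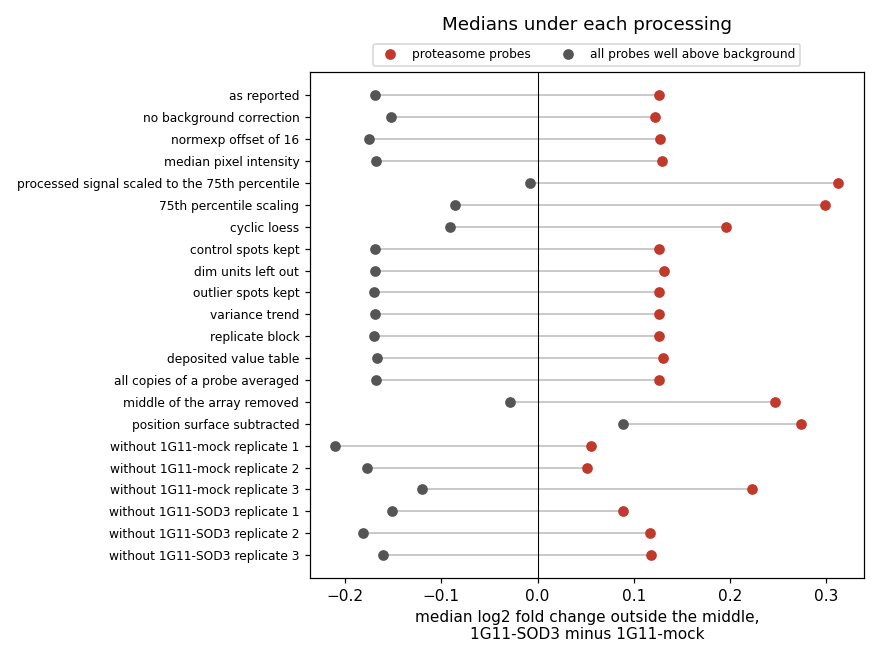
Median log2 fold change outside the middle under the reported processing and 21 alternatives. Red points are all 57 proteasome probes (55 with dim probes left out) and gray points all probes well above background on all arrays. The red points run from 0.05 to 0.31 and lie to the right of the gray point in each line.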

How the data were processed

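The authors deposited, for each of 6 arrays, the output of Feature Extraction 10.7.3.1, with the mean and median pixel intensity and a processed signal intensity of each spot, and a table of log2 values, background corrected and quantile normalized. That table was recomputed to within 0.005 from median pixels with control spots kept (each array's median 7.52).

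Here the mean intensity was corrected with normexp (offset of 50) against the local background median, the 3671 control spots were removed, and log2 values were quantile normalized (limma 3.58.1, R 4.3.3). Outlier-marked spots had no value, which left 2 member probes without a value on 1 array each, *Psma3* (1G11-SOD3 replicate 2) and *Psme1* in the middle (1G11-mock replicate 3). Copies of a probe were averaged inside and outside the middle separately, and the 55961 values were fitted with limma. Where a gene had several probes, the brightest outside the middle stood for it. The position surface was a tensor spline of row and column (mgcv 1.9.3) over 16004 spots. Symbols came from the array annotation, and all 46 accessions matched RefSeq. With 3 arrays per line an exact permutation test cannot give a 2-sided p below 0.1, and the number of arrays limits the precision.

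The members, the lists and the tests were chosen with earlier results of these data known. Genes were named if a probe passed an adjusted p of 0.05, if they were the highest or lowest of their role, as catalytic subunits or activators, with a spot in the middle, with probes of unequal sign, or, in other lists, as *Psmb8*, *Psmb9*, *Psmb10*, *Pomp*, *Nfe2l1*, *Btrc* and called members, and *Sod3*. Other genes named beside a count were chosen after their values were seen. Marker lists of epithelial cells (6 genes, 1 called higher, *Krt14*, in the middle) and leukocytes (5 genes, none called) were also run. The deviations of arrays with the same replicate number correlated at 0.14, 0.14 and 0.24 over 15178 probes, so that the numbers were taken to pair the arrays, on the basis of the data. Alternatives covered background correction, spot intensity, normalization, filters, the variance model, the replicate block, the deposited table, place on the array and each array left out. The normalization and the limma fit were also run on simulated data with independent noise of equal size and no place effect. That run does not bear on the place effect. Sequences and plots were handled in Python 3.11.15 with matplotlib 3.10.9, pandas 2.3.3 and numpy 2.4.6.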

Additional observations from a re-analysis of the deposited data

How the results depend on the processing

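No proteasome gene named here was called in the direction opposite to its reported value. This check did not cover the named genes of other lists. Outside the middle, 1 probe, that of *Psmd6*, was called higher, and likewise passed at any fold, under several settings. These were median pixel intensity, 75th percentile scaling, dim probes left out, the deposited table and the middle removed. With the processed signal or the position surface it was only *Psmc3ip*, which is no proteasome subunit. Leaving out 1 array gave 0 to 1 on both counts, and 0 to 0 lower. The median of all 57 probes was 0.13 as reported, 0.31 with the processed signal and 0.30 with 75th percentile scaling. It was 0.25 with the middle removed, 0.27 with the position surface and 0.05 to 0.22 with 1 array left out. In the middle, 1 of 2 probes was called with 75th percentile scaling, cyclic loess or outlier spots kept. Their median, 0.81 as reported, was 0.40 with the processed signal, 0.95 with 75th percentile scaling, 1.45 with outlier spots kept, 0.95 with all copies averaged (1 probe), 0.23 with the position surface and 0.72 to 0.88 with 1 array left out. Of the other pathway genes 1 was called, and 5 with 75th percentile scaling, 4 with dim probes left out, 0 with the middle removed or the position surface, and 1 to 3 with 1 array left out, the higher counts being 2 without 1G11-mock replicate 1 and 3 without 1G11-SOD3 replicate 3. With the replicate number as a block 2 of them were called, and the block changed no call of a proteasome probe at more than 2-fold, although the adjusted p of *Psmg1* in the middle became 0.0506. Their median, -0.12 as reported, was 0.0043 with the processed signal, 0.072 with the position surface and -0.20 to -0.10 with 1 array left out. The causes were not tested. Signal over background limits *Psma8* and *Psmb11*, and 3 arrays per line leave differences near 2-fold undecided for many probes.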
